A study of Mus musculus with 6 samples.

Results

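Integrated stress response genes were examined in mouse liver on a diet lacking methionine and choline. The set holds 10 genes of the 21899 in the deposited table: Atf4, Atf5, Ddit3, Ddit4, Trib3, Chac1, Asns, Sesn2, Nupr1 and Gdf15. They were taken by symbol, and where a symbol had several rows the row with most counts was used. Only Ddit3 had 2 rows (ENSMUSG00000025408 and ENSMUSG00000116429), and the second had 0 counts in every library. The study compared liver polyA RNA of wild-type C57BL6J mice after 6 weeks on a diet with both nutrients (MCS, 3 libraries) or without them (MCD, 3 libraries). Genotype, strain, tissue and time were shared by both groups, and no transgene or drug is given in the labels. MCD feeding is a dietary model of metabolic dysfunction-associated steatohepatitis, and it is known to lower body weight, unlike the obesity that accompanies the human disease. Nothing in the labels says whether each library is a mouse of its own. The p-values therefore reflect only how far these libraries scatter, and that scatter may be technical.

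The integrated stress response is set off when 1 of several kinases phosphorylates the initiation factor eIF2α, on amino acid shortage, endoplasmic reticulum stress, viral RNA or heme shortage. General translation then falls, while the mRNAs of ATF4, ATF5 and CHOP (Ddit3) are translated better because of short upstream reading frames. ATF4 pairs with other basic leucine zipper (bZIP) proteins and switches on genes for amino acid synthesis and uptake, redox balance and cell fate. Methionine shortage is a known trigger. The libraries measure mRNA only, so neither eIF2α phosphorylation nor ATF4 protein was measured.

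Total counts were 16615469 to 21322771 per library, and 12599 genes passed the filter on low counts, all 10 members among them. Changes of single genes are given as log2 fold change of MCD over MCS ± SE. The test was edgeR's quasi-likelihood test on counts scaled by TMM, which assumes that most genes do not differ, with p-values adjusted by Benjamini-Hochberg over the 12599 genes. Levels per library are CPM, counts per 1000000 of the TMM-scaled library size. A value of 3 counts corresponds to 0.104 to 0.227 CPM. Under TMM the median log2 fold change of all tested genes was 0.01, and under scaling by library size alone it was 0.57, so every change below is relative to the bulk of the genes. All 12 markers on a hepatocyte list were detected, with a summed level of 65013 to 125741 CPM.

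Nupr1, Ddit4 and Asns rose on the MCD diet, 9.29-fold, 4.94-fold and 3.25-fold. No member fell. Of the members, 3 of 10 rose, against 14.8% of all tested genes that rose and 9.97% that fell (24.7% in either direction). Gdf15 was 3.15-fold higher by its fitted value and missed the threshold. Atf4, Atf5, Ddit3, Trib3, Chac1 and Sesn2 did not pass. The median log2 fold change of the 10 members was 0.49, beside 0.01 over all genes tested. By CPM the 2 diets' libraries did not overlap for Nupr1, Ddit4, Asns and Gdf15, which were higher on MCD, and for Atf4, which was lower. Among all tested genes the libraries did not overlap by CPM for 45.3%, and for 23.9% with MCD higher. The overlap depends on the scaling. By deposited TPM, a level per transcript length, only Atf5 overlapped, and the other members, Atf4 included, were higher on MCD. The share of all genes without overlap by TPM was not counted.

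**Figure D1:**
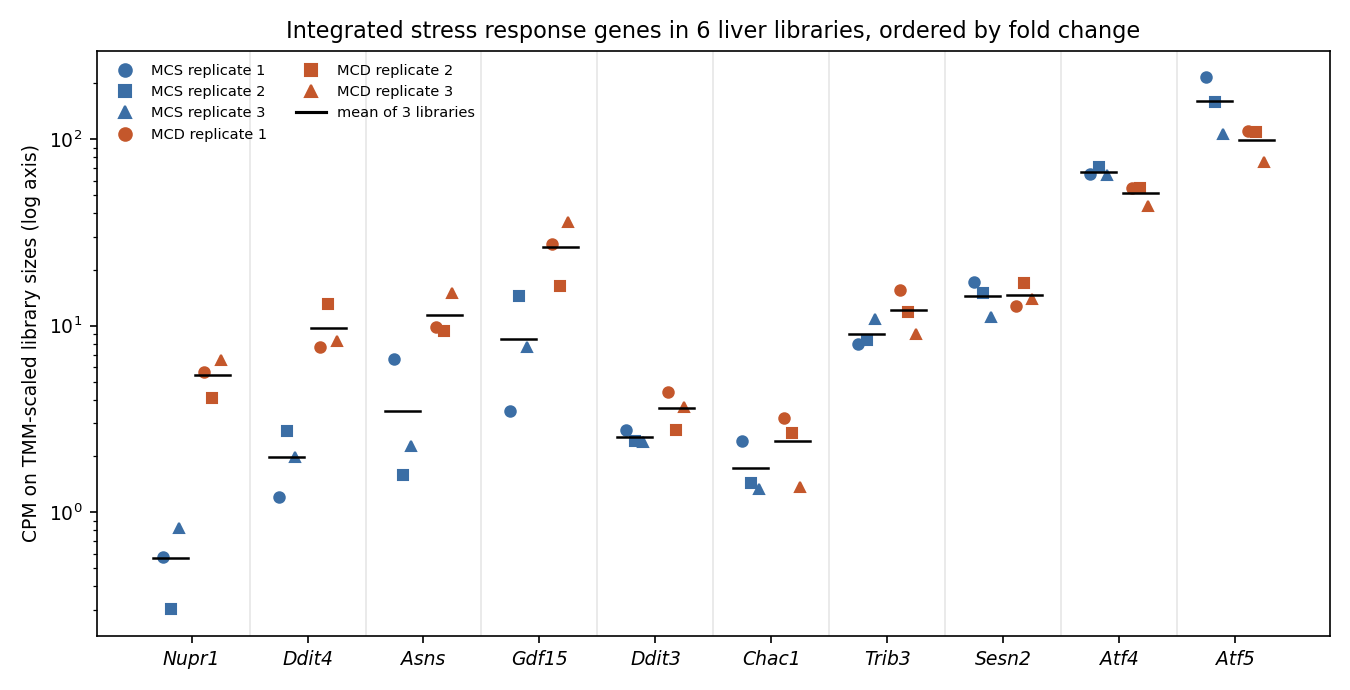
Level of each of the 10 genes in every library, as CPM on TMM-scaled library sizes (log axis). Blue points are MCS libraries, orange points MCD libraries, marker shapes the replicate numbers and black bars the mean of 3 libraries. Nupr1, Ddit4, Asns and Gdf15 show all MCD points above all MCS points, and Atf4 shows the opposite order under this scaling. With library size alone the Atf4 log2 fold change was 0.16, beside a median of 0.57 over all tested genes.

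The promoters of the members were searched for the core of the C/EBP-ATF response element, the joint site of ATF4 and a C/EBP partner, because members that carry it can be set beside those that do not. The windows were RefSeq's of build GRCm38.p6, from 250 bases before to 50 after an annotated start, and the deposited counts were made on another build (GRCm39). All 10 members had a window, 12 windows in all. The core TGATGNAA, on either strand, was found in 4 of the 10 members, Chac1, Trib3, Asns and Nupr1, and in 4.51% of 27025 genes with a window. The narrower TGATGCAA, which is contained in the first, was found in Chac1 and Nupr1 and in 1.03% of genes. The matches are shown in capitals, on the strand of the gene.

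Nupr1 (chr7:126625533-126625620, minus strand): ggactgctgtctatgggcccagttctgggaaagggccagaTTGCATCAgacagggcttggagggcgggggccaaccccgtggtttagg
Chac1 (chr2:119351009-119351096, plus strand): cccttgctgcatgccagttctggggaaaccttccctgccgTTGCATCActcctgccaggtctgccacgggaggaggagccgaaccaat
Asns (chr6:7693210-7693272, minus strand): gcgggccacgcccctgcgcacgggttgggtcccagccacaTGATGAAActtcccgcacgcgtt
Trib3 (chr2:152344028-152344057, minus strand): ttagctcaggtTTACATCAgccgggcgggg

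The match began 110 bases before the start in Nupr1, 193 before it in Chac1, 23 before it in Asns and 14 after it in Trib3. In Nupr1, Chac1 and Trib3 it lay on the strand opposite to the gene, and in Asns on the gene's own strand. Of the 4 members with a match, Nupr1 and Asns rose, and Chac1 and Trib3 did not pass. Of the 6 without one, Ddit4 rose. A match is a stretch of letters and not a measured site, and its absence concerns this window only.

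Among the transcription factors, Atf4 (ENSMUSG00000042406), the central activator of the response, was abundant on both diets. It stood at 65.2, 70.8 and 64.3 CPM in MCS replicates 1 to 3 and at 54.9, 55.0 and 44.0 CPM in MCD replicates 1 to 3. Every MCD library was thus below every MCS library, by a small margin. The change of −0.38 ± 0.14 (95% interval −0.69 to −0.07) did not pass (adjusted p = 0.0748, edgeR), and its sign depends on the scaling. It was 0.16 with library size alone and 0.29 on the log2(TPM + 1) scale, neither of which passed. The median of all tested genes was 0.57 and 0.53 in these settings, against 0.01 with TMM.

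Atf5 (ENSMUSG00000038539), a related bZIP factor under the same translational control, was the member with the highest level. Its CPM was 215, 159 and 106 on the MCS diet and 111, 110 and 75.9 on the MCD diet, so MCS replicate 3 lay within the MCD values. The change was −0.70 ± 0.26 (adjusted p = 0.0855, edgeR). Without MCS replicate 3 it was −0.93 and passed (adjusted p = 0.0336). On the log2(TPM + 1) scale it was 0.01, and DESeq2 called it lower (−0.71, adjusted p = 0.0425). Atf5 overlaps Nup62 and Il4i1 on the other strand in GENCODE M21, and the sources used here do not say whether the counting used strand.

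Ddit3 (ENSMUSG00000025408) encodes CHOP, a bZIP factor linked to cell death under lasting stress. It was low, at 2.76, 2.42 and 2.37 CPM on the MCS diet and 4.41, 2.76 and 3.66 CPM on the MCD diet, and MCD replicate 2 lay at the level of MCS replicate 1. The change of 0.52 ± 0.31 (95% interval −0.17 to 1.21) did not pass (adjusted p = 0.240, edgeR). With library size alone it was 1.09 and passed (adjusted p = 0.0410). In GENCODE M21, genes named Ddit3 overlap each other on the same strand, and Gm4189 lies across from them on the other strand. Ddit3 also overlaps Mars1, named Mars in GENCODE M21, on the other strand. That synthetase gene was at 53.8 ± 5.74 CPM on MCS and 41.2 ± 7.75 on MCD (SD, n = 3), far above Ddit3.

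Nupr1 (ENSMUSG00000030717), a small stress-induced chromatin protein, had the largest fold change of the 10. Its counts were 10, 4 and 15 on MCS and 125, 91 and 189 on MCD, or 0.575, 0.302 and 0.827 CPM against 5.62, 4.12 and 6.58 CPM. All MCD libraries were several-fold above the highest MCS library, and the MCS values rest on few counts. The change of 3.21 ± 0.42 (adjusted p = 0.00161, edgeR) stood at percentile 98.2 of all tested genes. It passed with each library left out in turn, between 2.93 and 3.57.

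The pseudokinase Trib3 (ENSMUSG00000032715), a target of ATF4 and CHOP that feeds back on ATF4 and inhibits AKT, was at 7.94, 8.39 and 10.9 CPM on MCS and 15.5, 11.9 and 9.02 CPM on MCD. MCD replicate 3 lay below MCS replicate 3, so the diets overlapped. The change of 0.42 ± 0.24 (95% interval −0.12 to 0.95) did not pass (adjusted p = 0.221, edgeR). Without replicate 3 of both diets, a choice made after the data were seen, it was 0.75 and passed (adjusted p = 0.0163). With library size alone it was 0.95 and passed (adjusted p = 0.0209).

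Ddit4 and Sesn2 encode inhibitors of the growth kinase complex mTORC1; only Ddit4 passed the test. Ddit4 (ENSMUSG00000020108, REDD1) was at 1.21, 2.72 and 1.99 CPM on MCS and 7.64, 13.0 and 8.32 CPM on MCD. The lowest MCD library was above the highest MCS library, and MCD replicate 2 was the highest. The rise of 2.30 ± 0.35 (adjusted p = 0.00323, edgeR) passed with each library left out in turn, between 2.0 and 2.58.

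Sesn2 (ENSMUSG00000028893, sestrin 2), which senses leucine upstream of mTORC1, was at 17.2, 15.0 and 11.1 CPM on MCS and 12.8, 16.9 and 13.9 CPM on MCD. By CPM the diets overlapped fully, with a change of 0.01 ± 0.20 (95% interval −0.44 to 0.46, adjusted p = 0.983, edgeR). By deposited TPM they did not overlap, at 4.625 to 6.678 on MCS and 7.992 to 10.361 on MCD. The direction of the Sesn2 change turned with the setting, from −0.16 without MCS replicate 3 to 0.68 on the log2(TPM + 0.1) scale. It passed there (adjusted p = 0.0359, limma) and on the log2(TPM + 1) scale (0.60, adjusted p = 0.0388, limma). The median of all tested genes was 0.65 and 0.53 on these scales. Sesn2 overlaps Gm12981 on the same strand in GENCODE M21.

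Among the metabolic targets, Asns (ENSMUSG00000029752), which makes asparagine from aspartate and glutamine, was at 6.62, 1.59 and 2.26 CPM on MCS and 9.89, 9.41 and 15.0 CPM on MCD. The MCD libraries were all higher, but MCS replicate 1 stood well above the other MCS libraries. The rise of 1.70 ± 0.49 (95% interval 0.56 to 2.84) passed narrowly (adjusted p = 0.0398, edgeR). With MCS replicate 1 left out it was 2.55 and passed (adjusted p = 0.00648, edgeR). Leaving out any other of the 6 libraries, MCS 2 or 3 or MCD 1, 2 or 3, ended the call (1.36 to 1.79, adjusted p = 0.0530 to 0.117).

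The deposited count and TPM of a gene together imply the transcript length used for it. For Asns in MCS replicate 2 that length was 0.499 of the gene's median over the 6 libraries, and it was close to the median in the other 5. Among 10304 genes with at least 20 counts in every library, 3.80% had a library under 0.7. For the other members the ratio was 0.944 to 1.02.

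Chac1 (ENSMUSG00000027313), an enzyme that degrades glutathione, was low on both diets, with 42, 19 and 24 counts on MCS and 71, 59 and 39 on MCD. This gave 2.42, 1.44 and 1.32 CPM against 3.19, 2.67 and 1.36 CPM. MCD replicate 3 was at the level of the lower MCS libraries. The change of 0.47 ± 0.45 (95% interval −0.54 to 1.48) did not pass (adjusted p = 0.468, edgeR), and the interval spans changes in both directions.

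Gdf15 (ENSMUSG00000038508), a hormone of the TGF-β superfamily that acts on the brainstem to lower food intake, varied between the libraries of each diet. It was at 3.51, 14.4 and 7.72 CPM on MCS and 27.3, 16.4 and 36.0 CPM on MCD. MCD replicate 2 was only a little above MCS replicate 2, and the diets did not overlap. The change of 1.66 ± 0.50 (95% interval 0.47 to 2.84) missed the threshold (adjusted p = 0.0516, edgeR). It passed without MCS replicate 2 (2.23, adjusted p = 0.0278), by DESeq2 (1.62, adjusted p = 0.00222) and by limma-voom (1.86, adjusted p = 0.0308). It did not pass with any other library left out (1.27 to 1.88, adjusted p = 0.0585 to 0.196, edgeR). Nor did it pass without a count filter (1.65, adjusted p = 0.108, edgeR). Without replicate 3 of both diets, a choice made after the data were seen, it was 1.33 (adjusted p = 0.407, edgeR).

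**Figure D2:**
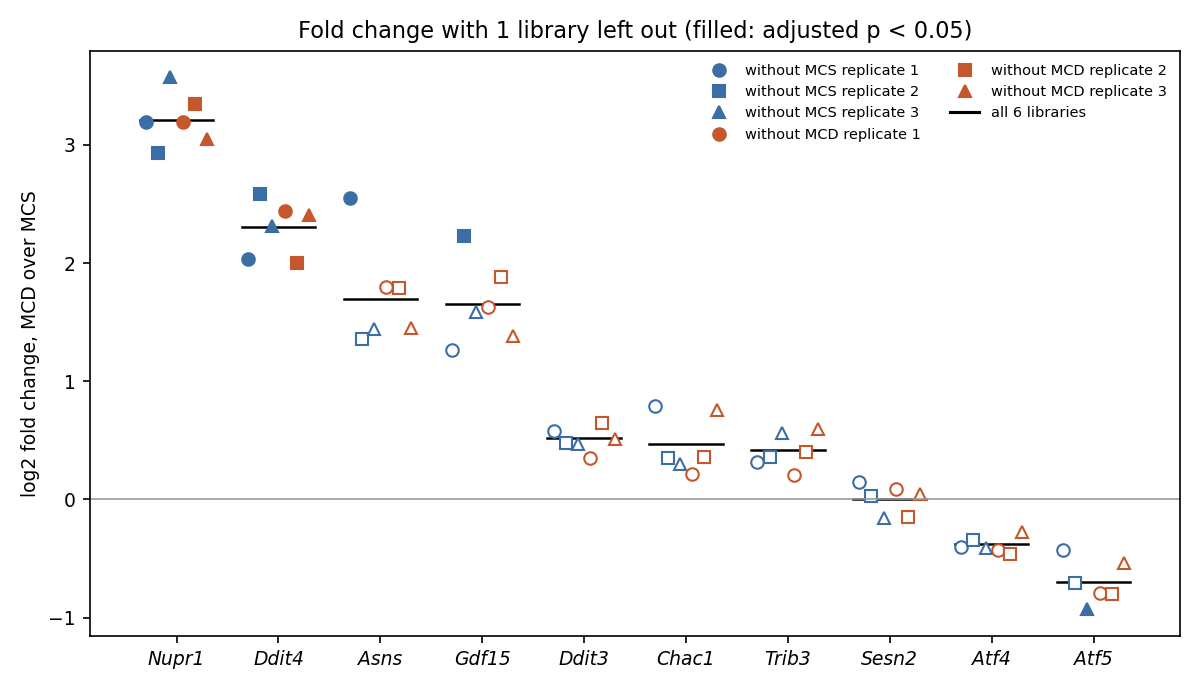
Log2 fold change of MCD over MCS for each gene when 1 library was left out (points, coloured by the diet and shaped by the replicate left out) beside the value with all 6 libraries (black bar). Points are filled at adjusted p under 0.05. Nupr1 and Ddit4 are filled in all 6 fits, Asns in 1, Gdf15 in 1 and Atf5 in 1.

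The call for several members rested on how the libraries were scaled. With library size alone 6 of the 10 members rose, and on either log2(TPM + pseudocount) scale 7 rose, as 5095 to 5718 of all tested genes did under those 3 settings. In the authors' deposited table, which compares mean TPM, 5 members had a false discovery rate under 0.05, all higher on MCD. How many of all genes passed there was not counted, so no background share stands beside these 5 members. The authors' deposited table gives log2 fold changes of 3.96 for Nupr1, 2.94 for Ddit4, 2.37 for Gdf15, 2.24 for Asns and 1.07 for Trib3 among these. It gives 1.24 for Ddit3 with a false discovery rate of 0.0509. For Atf4 the authors' deposited table gives 0.30 and for Atf5 −0.03, with false discovery rates of 0.554 and 0.765. Nupr1 and Ddit4 had the highest and Atf4 and Atf5 the lowest fold changes of the members with TMM, with library size alone and in the authors' deposited table.

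**Figure D3:**
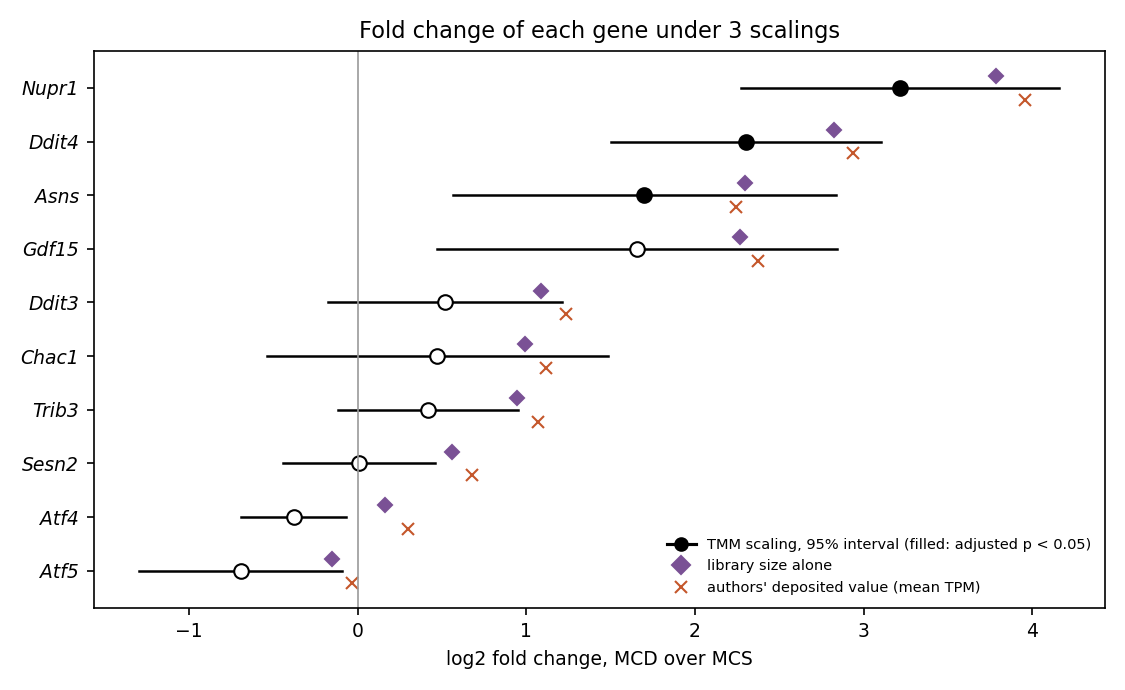
Log2 fold change of MCD over MCS for each gene with TMM scaling (circles with 95% intervals, filled at adjusted p under 0.05), with library size alone (diamonds) and in the authors' deposited table (crosses). Diamonds and crosses lie to the right of the circles for all 10 genes, and Atf4 changes sign, from −0.38 to 0.16 and 0.30.

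Levels of different genes were compared per transcript length, as the deposited TPM, in which the order of genes within a library does not depend on scaling between libraries. On the MCS diet the order by mean was Atf5 (120 ± 37.1 TPM, SD, n = 3), Atf4 (52.9 ± 1.68), Gdf15 (8.05 ± 5.04), Trib3 (6.16 ± 1.37), Sesn2 (5.67 ± 1.03), Ddit3 (3.96 ± 0.192), Asns (2.73 ± 1.52), Ddit4 (1.53 ± 0.562), Chac1 (1.44 ± 0.480) and Nupr1 (0.952 ± 0.480). Neighbours in this order overlapped between libraries except at 3 steps: Atf5 to Atf4, Atf4 to Gdf15 and Sesn2 to Ddit3. The mRNAs of the 2 upstream activators were thus well above those of the other members on the control diet.

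On the MCD diet Atf5 (118 ± 13.5 TPM) and Atf4 (64.9 ± 4.87) were again first, and their libraries did not overlap. Gdf15 (41.7 ± 22.0) overlapped Atf4. Nupr1 moved from the tenth place to the fourth (14.8 ± 5.81), overlapping Gdf15, Trib3 (12.9 ± 3.21) and Asns (12.9 ± 5.76). Ddit4 (11.7 ± 2.06), Ddit3 (9.35 ± 3.22) and Sesn2 (9.07 ± 1.2) followed with overlapping libraries. Chac1 (3.12 ± 1.05) was the lowest, with no library in the range of Sesn2.

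**Figure D4:**
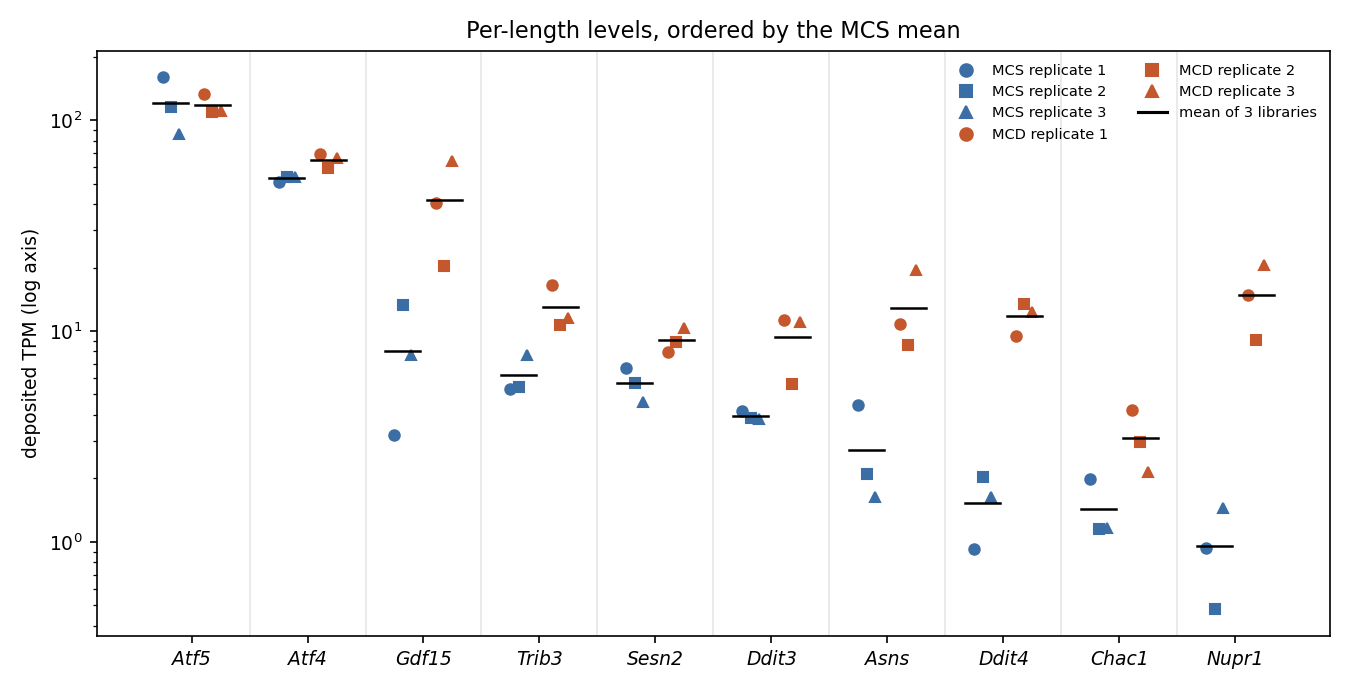
Deposited TPM of each gene in every library (log axis), ordered by the MCS mean. Colours give the diet, shapes the replicate and black bars the mean of 3 libraries. Atf5 and Atf4 are highest on both diets, and Nupr1 goes from a mean of 0.952 TPM on MCS to 14.8 TPM on MCD.

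Patterns over the 6 libraries were compared by the root-mean-square difference in log2 CPM after centring each gene on its mean, over the 11756 genes whose mean reached 1 CPM. This is a description, since the libraries share the diets. Nupr1 lay nearest to the calcium-binding protein gene S100a4 (0.168) and to Tnfrsf23 (0.169). Ddit4 lay nearest to Pkmyt1, a cell cycle kinase (0.275), and Mms22l (0.324). Asns lay nearest to the cell cycle factor E2f2 (0.217) and Nipa1 (0.241), and Gdf15 to Sgpp2 (0.233) and Neurl1a (0.242). Atf4 lay nearest to Pitpnb (0.0227) and Stau1 (0.0289), and Atf5 to Syvn1, an endoplasmic reticulum ubiquitin ligase (0.109), and Unc93a2 (0.128).

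For Ddit3 the nearest genes were Nemp1 (0.0727) and Tcp11l1 (0.0870), for Trib3 Serpinb8 (0.103) and Nav2 (0.119), for Chac1 Igsf11 (0.229) and Sstr2 (0.239), and for Sesn2 Gm14296 (0.0743) and Zfp839 (0.0765). No member was among the 2 nearest genes of another. The nearest other member ranked between 291 (Gdf15 from Ddit4) and 5049 (Sesn2 from Atf4) among all genes compared. This difference also counts the size of a change, so the ranks cannot tell whether members moved together. In the deposited annotation, Atf4, Ddit3, Trib3 and Chac1 shared the term for intrinsic apoptotic signalling on endoplasmic reticulum stress, which 42 genes of the table carry.

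Markers of several liver cell types were read beside these results, and in bulk tissue fewer cells of a type and less RNA per cell cannot be told apart. Of 12 macrophage and Kupffer cell markers 9 rose and 1 fell, and their summed level was 431 to 546 CPM on MCS and 1427 to 3196 CPM on MCD. Of 12 stellate cell and fibroblast markers 5 rose (201 to 357 CPM against 428 to 1965), and of 7 tested cholangiocyte markers 5 rose (57.9 to 85.1 against 213 to 580, sums over 8 markers). Of 12 hepatocyte markers 5 fell (104464 to 125741 CPM against 65013 to 107878). Sums for sinusoidal endothelial markers were 124 to 481 and 80.2 to 413 CPM, with 0 of 10 called by edgeR and 0 at an unadjusted p under 0.05. Sums for lymphocyte markers were 4.26 to 7.01 and 4.43 to 12.2 CPM, and for neutrophil markers 3.17 to 4.72 and 6.24 to 24.4 CPM. None of these markers was at 0 in every library.

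Among the MCD libraries, replicate 3 was the highest and replicate 2 the lowest in the sums of every list but that of hepatocytes. The hepatocyte sum ran the other way, at 85639, 107878 and 65013 CPM in MCD replicates 1 to 3. Nupr1, Asns and Gdf15 also had replicate 3 highest and replicate 2 lowest. By CPM, Atf4, Atf5, Trib3 and Chac1 were instead lowest in replicate 3. Ddit4 and Sesn2 were highest in replicate 2, and Ddit3 was highest in replicate 1. For several members this order depends on the scaling. By deposited TPM, Atf4, Trib3 and, barely, Atf5 (109.6 against 110.0) were lowest in replicate 2, and Sesn2 was highest in replicate 3. The part of cell composition in these results was not tested.

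The rest of the pathway was read from 7 lists of 89 further genes, of which 86 were tested. Of these 20 rose and 6 fell, or 23.3% and 6.98%, beside 14.8% and 9.97% of all tested genes. Between 11 and 23 rose with 1 library left out, with 12, 11 and 12 on leaving out MCS 1, MCS 2 and MCD 1. Those that fell numbered 2 without any 1 of these libraries and 15 without MCD replicate 2.

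The eIF2α kinases sense the stress. Of 5 genes on their list 0 rose and 1 fell, Gcn1, the co-activator of the kinase GCN2, with a change of −0.51 ± 0.14 (adjusted p = 0.0305, edgeR). Gcn1 lost its call when MCS 1, MCS 2 or MCD 1 was left out, and with library size alone its change was 0.03. Among the kinases, PERK (Eif2ak3) stood at 16.2 ± 0.432 CPM on MCS and 22.6 ± 4.77 on MCD (SD, n = 3; adjusted p = 0.0684, edgeR), and GCN2 (Eif2ak4) at 7.04 ± 1.63 and 6.26 ± 0.278 CPM; these 2 were chosen after their values were seen.

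Of 14 genes for eIF2, its exchange factor eIF2B, the eIF2α phosphatases and related initiation factors, 1 rose and 1 fell. Eif2s2, the β subunit of eIF2, rose by 0.59 ± 0.17 (adjusted p = 0.0327, edgeR). The phosphatase subunit Ppp1r15b, which keeps eIF2α dephosphorylated in unstressed cells, fell from 154 ± 17.4 to 94.4 ± 12.0 CPM (−0.71 ± 0.16, adjusted p = 0.0159, edgeR). Ppp1r15a (GADD34), the stress-induced phosphatase subunit and itself a target of ATF4, had a change of −0.16 ± 0.17 (adjusted p = 0.514, edgeR; chosen after its value was seen). Eif2s2 lost its call on leaving out any library but MCD 2. Ppp1r15b lost its call on leaving out MCS 1, MCS 2 or MCD 1, and it did not pass with library size alone (−0.17).

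Among the bZIP partners of ATF4, of 8 genes 4 rose, Atf3, Fos, Jun and Nfe2l2, and 0 fell. Atf3, a stress-induced repressor downstream of ATF4 and other pathways, rose from 1.89 ± 1.17 to 31.5 ± 10.4 CPM (4.07 ± 0.51, adjusted p = 0.00252, edgeR). The AP-1 subunit Jun rose from 33.7 ± 6.45 to 102 ± 18.0 CPM (1.60 ± 0.19, adjusted p = 0.00111, edgeR). Both passed with each library left out in turn. Without MCS replicate 1 or MCS replicate 2, 2 of the list rose.

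Amino acid synthesis genes that ATF4 activates rose in part. Of 12 genes 5 rose, Phgdh and Psat1 of serine synthesis, Mthfd2 of the mitochondrial folate cycle, Aldh18a1 of proline synthesis and Pck2, the mitochondrial phosphoenolpyruvate carboxykinase. Phgdh was at 0.157 ± 0.0776 CPM on MCS, about the level of 3 counts, and at 1.29 ± 0.757 on MCD. Psat1 rose from 1.11 ± 0.383 to 5.94 ± 1.69 CPM (2.42 ± 0.38, adjusted p = 0.00346, edgeR), and Pck2 from 6.01 ± 0.0765 to 15.1 ± 0.499 CPM (1.33 ± 0.16, adjusted p = 0.00112, edgeR). Both passed with each library left out. Cbs, which begins the conversion of homocysteine to cysteine, fell from 338 ± 50.7 to 128 ± 50.9 CPM (−1.40 ± 0.29, adjusted p = 0.0111, edgeR). The list's median was 1.07, and 3 rose without MCS replicate 1 or MCS replicate 2.

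Of 8 tested amino acid transporters on the ATF4 target list 4 rose and 1 fell. Slc1a5, a glutamine and neutral amino acid exchanger, rose from 1.3 ± 0.541 to 5.51 ± 1.62 CPM (2.08 ± 0.41, adjusted p = 0.00885, edgeR). The cationic amino acid transporter Slc7a1 rose by 1.96 ± 0.38 (adjusted p = 0.00818, edgeR). Slc7a11 and Slc3a2, the chains of the cystine-glutamate exchanger, were the others that rose. Slc7a11 was at 0.201 ± 0.153 CPM on MCS, about the level of 3 counts, and at 1.90 ± 1.12 on MCD. Slc38a2, a neutral amino acid transporter induced by amino acid shortage, fell from 130 ± 45.2 to 71.7 ± 2.17 CPM (−0.86 ± 0.25, adjusted p = 0.0346, edgeR). Slc38a2 lost its call on leaving out MCS 1, MCS 2, MCD 1 or MCD 3 (−0.88 to −0.65), and it did not pass with library size alone (−0.29).

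The cytosolic aminoacyl-tRNA synthetases charge tRNAs, and many are ATF4 targets. Of 23 genes with their scaffold proteins 2 rose, Rars (0.55 ± 0.12, adjusted p = 0.0150, edgeR) and Gars (0.50 ± 0.15, adjusted p = 0.0422), and 0 fell (3 lower at an unadjusted p under 0.05). The list's median was 0.01, the same as over all genes. With library size alone 14 rose and the median was 0.56, again close to that of all genes. On leaving out MCS 1, MCS 2 or MCD 1, 0 rose.

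Among 16 tested secreted, signalling and other targets 4 rose and 2 fell. The cell cycle inhibitor Cdkn1a, mainly known as a p53 target, rose from 0.926 ± 0.209 to 29.1 ± 4.09 CPM (4.95 ± 0.22, adjusted p = 2.72e-05, edgeR). The liver hormone Fgf21, induced by ATF4 in protein and amino acid restriction, rose from 5.11 ± 0.410 to 10.9 ± 2.01 CPM (1.09 ± 0.21, adjusted p = 0.00884, edgeR). Sesn1 and the death receptor Tnfrsf10b were the others that rose. Tnfrsf10b was at 0.225 ± 0.205 CPM on MCS, about the level of 3 counts, and at 2.24 ± 1.11 on MCD. The growth factor Vegfa fell by 0.72 on the log2 scale (adjusted p = 0.0102, edgeR) and the pseudokinase Trib1 by 0.65 (adjusted p = 0.0204, edgeR). Neither passed with library size alone (−0.18 and −0.11). Vegfa lost its call on leaving out MCS 1 (adjusted p = 0.0513, edgeR), and Trib1 on leaving out MCS 2, MCS 3 or MCD 1 (adjusted p up to 0.0706). Without MCD replicate 1, 2 of the list rose.

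**Figure D5:**
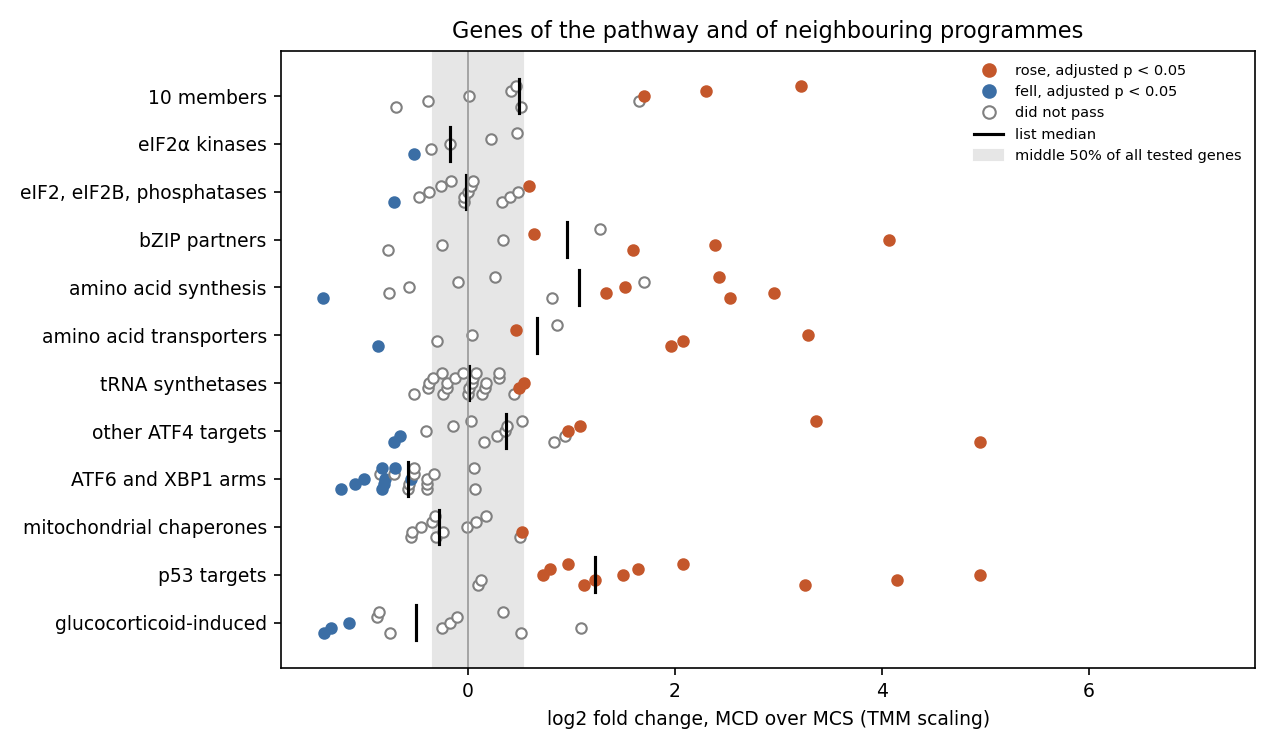
Log2 fold change of MCD over MCS (TMM scaling) for the 10 members and for the tested genes of 11 lists, 1 point a gene. Orange and blue points rose or fell at adjusted p under 0.05, open points did not pass, black bars are list medians and the grey band holds the middle 50% of all tested genes. The members spread from −0.70 (Atf5) to 3.21 (Nupr1), and the ATF6 and XBP1 list has its median at −0.58, beside 0.01 over all tested genes. With library size alone these medians were −0.04 and 0.57.

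The other arms of the unfolded protein response were read as a contrast. They are driven by ATF6 and by IRE1 with XBP1, and they raise chaperones of the endoplasmic reticulum. Of 21 genes 0 rose (0 higher at an unadjusted p under 0.05) and 9 fell (15 lower at an unadjusted p under 0.05), with a median of −0.58. The lectin chaperone Calr fell from 811 ± 220 to 347 ± 83.1 CPM (−1.22 ± 0.28, adjusted p = 0.0156, edgeR) and the chaperone Hyou1 by 1.09 on the log2 scale (adjusted p = 0.0189, edgeR). The list's count depends on the setting. On leaving out MCS replicates 1, 2 and 3 in turn, 0, 0 and 12 fell. On leaving out MCD replicates 1, 2 and 3 in turn, 4, 10 and 2 fell. Over all genes, those that fell went from 1256 to 433, 400, 902, 430, 2072 and 1019 in the same order of fits. With 1 library left out in turn the list's median was −0.72 to −0.50. With library size alone 2 rose and 1 fell, and the median was −0.04, beside 0.57 over all genes. No test compared this list with the members.

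Some members also belong to other programmes, and lists of these were read from the same fit. Sesn2, Gdf15 and Ddit4 are known p53 targets as well, and of 13 other p53 targets 11 rose and 0 fell, with a median of 1.23. Among them Phlda3 rose by 3.25 ± 0.40 (adjusted p = 0.00136, edgeR), and Cdkn1a and Sesn1 stand both on this list and on that of secreted, signalling and other ATF4 targets. Between 7 (without MCD replicate 1) and 11 rose with a library left out. Ddit4 is also induced by glucocorticoids, and of 12 glucocorticoid-induced genes 0 rose (1 higher at an unadjusted p under 0.05, edgeR) and 3 fell, Tat and Pck1 among them (−1.39 ± 0.29 and −1.33 ± 0.28). The 1 higher gene was Sgk1, which narrowly missed the threshold (1.10 ± 0.34, adjusted p = 0.0514, edgeR). Tat also stands on the hepatocyte marker list. Without MCS replicate 2 or MCD replicate 1, 0 of the glucocorticoid list fell, and with library size alone 3 of it rose and 2 fell. Of 12 mitochondrial chaperones and proteases, a group tied to ATF5, 1 rose, the protease subunit Clpx (0.52 ± 0.14, adjusted p = 0.0273, edgeR), and 0 fell, and Clpx lost its call on leaving out MCS 1, MCS 2 or MCD 1. Of this list 5 rose with library size alone, and without MCD replicate 2 there were 2 that rose and 3 that fell.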

How the data were processed

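Liver polyA RNA was measured in 3 MCS and 3 MCD libraries, grouped by the diet in their titles. The submitters' processing notes name GRCm39 and, in no stated role, the aligners HISAT2 2.1.0 and Bowtie2 2.2.8, the trimmer fastp 0.18.0, and RSEM beside StringTie 1.3.1. The deposited table holds counts and TPM per gene and library, and the authors' mean TPM, log2 fold change, p-value and FDR. The deposited counts are whole, but 64 values are 0 where the TPM is positive, so the deposited values were taken as estimated counts in rounded form. The TPM columns deposited by the authors sum to 1000000 each, so a few abundant genes can shift all others. The authors' log2 fold change is a ratio of mean TPM, and no source used here gives the test behind their p-value.

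Low genes were removed by filterByExpr (groups as diets, minimum count 10). edgeR 4.0.16 (R 4.3.3) fitted diet alone, robustly, on TMM-scaled counts, and genes were called at an adjusted p under 0.05. SE is the log2 fold change over the square root of F. TMM factors were 0.797 to 0.873 for MCS and 1.04 to 1.41 for MCD. Replicates of a diet all differed beyond counting noise (lowest chi-square per df 13.7). Alternatives used limma 3.58.1, DESeq2 1.42.0, other scalings, filters and pseudocounts, a replicate block and leaving libraries out. The code was tested on simulated data.

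The members and lists were chosen with earlier results of these data known. Of each list the 2 called genes with the smallest p in each direction are named with values, or with none called the gene with the highest level, and for each member the 2 genes nearest in pattern. Other genes named were chosen after their values were seen. Lists were described by counts, with no set test. Mars and Wars were matched as Mars1 and Wars1.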

Additional observations from a re-analysis of the deposited data

How the results depend on the processing

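With library size alone, log2(TPM + 1) or log2(TPM + 0.1), 5095, 5449 or 5718 genes rose and 348, 264 or 274 fell, 6, 7 or 7 members rose, and 51, 51 or 54 other pathway genes rose and 1 fell in each. With all libraries and TMM these were 1861, 1256, 3, 20 and 6. In these 3 settings Ddit3 passed (1.09, 1.01 and 1.15), as did Trib3 (0.95, 0.95 and 1.05) and Gdf15 (2.27, 2.26 and 2.43), and Atf4 turned to 0.16, 0.29 and 0.29. On the TPM scales Atf5 turned to 0.00734 and 0.00771 and Sesn2 passed (0.60 and 0.68). Sesn2 was −0.00365 with median-of-ratios scaling and −0.0104 by DESeq2. DESeq2 called 1 member down, Atf5 (−0.71), and Gdf15 up (1.62), and limma-voom called Gdf15 up (1.86). Without a count filter Asns did not pass (1.69). With both libraries of replicate 3 left out, added after the data were seen, 1 member fell, Atf5 (−0.76), Trib3 passed (0.75), Asns did not (1.19) and Sesn2 was −0.12.

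With 1 library left out, genes that rose numbered 946 to 2363 and genes that fell 400 to 2072, members 2 to 3 and 0 to 1, and other pathway genes 11 to 23 and 2 to 15. Log2 fold changes ranged from −0.93 to −0.43 for Atf5, 1.36 to 2.55 for Asns, 1.27 to 2.23 for Gdf15 and −0.16 to 0.14 for Sesn2, which was −0.16 without MCS replicate 3 and −0.14 without MCD replicate 2. Of the pathway genes named by rule, Gcn1 turned to 0.0270 with library size alone and to 0.14 and 0.15 on the TPM scales, where Trib1 turned to 0.0315 and 0.0331. The cause of these changes was not tested, beyond the shift of all genes that scaling brings.

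Replicate numbers in the titles were fitted as a replicate block, which made 1 member fall, Atf5 (−0.66), and Gdf15 pass (1.77). Over genes, deviations from the diet mean correlated by 0.0630, 0.147 and 0.246 between libraries of the same number. Between libraries of different numbers the correlation was −0.223 to 0.132. Each MCD library thus correlated most with the MCS library of its number, but MCS replicate 1 correlated more with MCD replicate 2 (0.132). No label ties the numbers, so the samples were taken to share only a number. Whether libraries of a number share a batch was not tested. Counts of 4 to 15 for Nupr1 on MCS and 19 to 71 for Chac1 limit their precision.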
